A study of Homo sapiens with 6 samples.

Results

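Homologous recombination and DNA damage checkpoint genes, 37 of the 20260 genes in the deposited table, were compared between MDA-MB-231 cells given an ABI2 plasmid and cells given an empty vector. The 37 members were taken by gene symbol: the BRCA and Fanconi anaemia genes, the paralogs of the central recombinase, the break sensors, the damage kinases with their checkpoint partners, the chromatin signalling factors at breaks, the RecQ helicases BLM and WRN, and the mismatch repair gene MSH6. MDA-MB-231 is an established triple-negative breast cancer line with mesenchymal features, and ABI2 is an adaptor of the WAVE complex, which drives branched actin assembly. RNA was sequenced from 3 samples transfected with the plasmid that carries ABI2 and 3 samples transfected with the empty vector, called control by the labels. The stated purpose was to learn the functions of ABI2. The plasmid's promoter, the share of cells that took it up and the time from transfection to harvest are not stated in what was used here. Whether the replicates came from separate cultures is not stated either, so a p-value speaks of the spread among these 6 samples alone, and that spread may be technical.

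In homologous recombination, a double-strand break is sensed and trimmed back to single strands, a recombinase is loaded on them with the help of BRCA1, PALB2 and BRCA2, and the broken end is copied from the sister chromatid. The kinases ATM and ATR report the damage to CHEK2 and CHEK1, which hold the cell cycle. The Fanconi pathway brings the same machinery to crosslinks between the strands, through a core complex that marks the FANCD2-FANCI pair with ubiquitin. Inherited loss of several of these genes is known in breast cancer, and their activity shapes how breast tumour cells respond to crosslinking drugs and PARP inhibitors.

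The libraries held 38453152 to 40309690 counts. ABI2 (ENSG00000138443, chromosome 2) had 8603, 8399 and 8535 counts in the ABI2 libraries, against 3488, 3304 and 3329 counts in the control libraries. Every ABI2 library was thus above every control library, with a log2 fold change of 1.43 ± 0.04 (SE; edgeR quasi-likelihood test, adjusted p = 1.23e-05, n = 3 each). The 6 mesenchymal markers examined all had counts in every library, VIM the most with 4449 CPM in ABI2 libraries and 3678 CPM in control libraries (CPM, counts scaled to a common library size). Of these 6, 2 were called higher and 3 lower, and their summed level was 5770 to 5963 CPM in ABI2 libraries and 4754 to 4958 CPM in control libraries. Of 8 luminal markers, CDH1 and PGR had 0 counts in all libraries, and ESR1 had 0, 2 and 0 counts in ABI2 libraries and 6, 6 and 0 counts in control libraries. The other 5 had counts in every library and summed to 804 to 895 CPM in ABI2 libraries and 436 to 481 CPM in control libraries. KRT8, KRT18 and GATA3 among them were called higher, with KRT8 at 388 CPM in ABI2 libraries and 206 CPM in control libraries, and EPCAM and FOXA1 were not called. The part of these markers in the members' values was not tested. Mean transcript GC content, weighted by counts, was 53.7%, 53.9% and 54.1% in the ABI2 libraries, against 51.1%, 50.8% and 51.3% in the control libraries. GC-rich transcripts thus took a larger share of the counts in each ABI2 library, and the members are read against that difference below.

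Most homologous recombination and checkpoint genes were lower in cells given the ABI2 plasmid. All 37 members passed the filter on low counts. 27 fell and 8 rose at an adjusted p below 0.05, and 2, ATRIP and CHEK2, did not pass the test. Over all 13325 genes tested, 73.1% were called in either direction, 38.0% lower and 35.1% higher, so the 73.0% of members called lower stood against a background of 38.0% and the 21.6% called higher against 35.1%. The median log2 fold change of the members was -1.62, beside -0.01 for all genes tested. Falls of at least 2-fold were seen in 23 members and falls of at least 4-fold in 15, against 24.9% and 10.3% of all genes, and no member was called higher by 2-fold, against 1.85% of all genes. In 34 members the CPM of the groups did not overlap, against 77.9% of all genes, and ATRIP, CHEK2 and RNF8 were the members whose groups did. In bulk RNA, less transcript per cell and fewer cells that make it cannot be told apart.

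**Figure D1:**
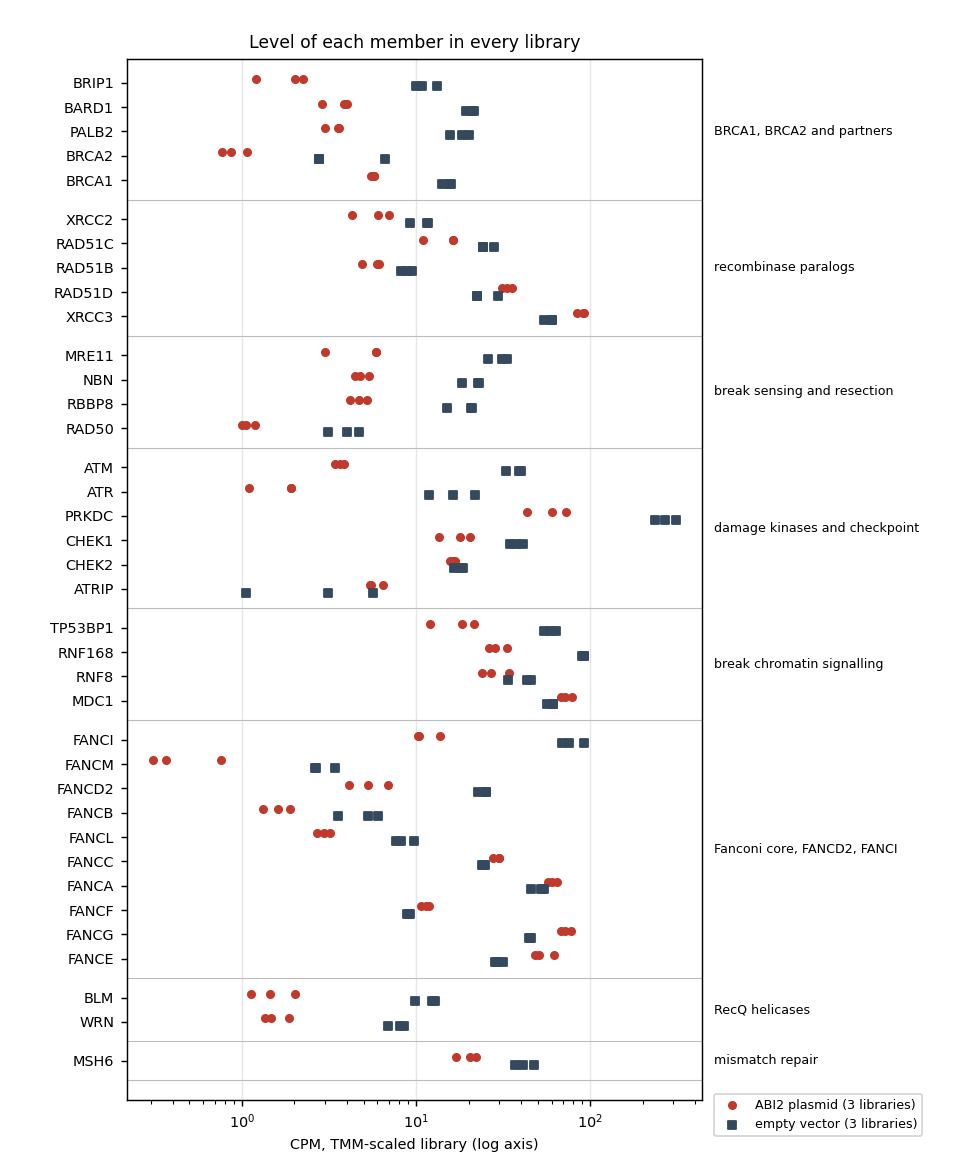
CPM of each of the 37 members in every library, on a log axis, grouped by role, with the 3 ABI2 libraries and the 3 control libraries as separate points. The ABI2 points lie left of the control points for ATM, ATR, FANCI and BLM, and right of them for FANCE, FANCG and XRCC3, and the ranges overlap for ATRIP, CHEK2 and RNF8.

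The largest falls were those of ATM and ATR, the kinases at the head of the break and replication stress responses. ATM (ENSG00000149311, chromosome 11, 108222484 to 108369102, plus strand, GRCh38) had 133, 140 and 146 counts in the ABI2 libraries, against 1687, 1598 and 1305 counts in the control libraries. The groups lay far apart, at 3.65 ± 0.21 CPM in ABI2 libraries and 37.3 ± 4.1 CPM in control libraries (SD, n = 3 each), a 10.2-fold lower level (log2 fold change -3.36 ± 0.12, adjusted p = 1.23e-05). ATR (ENSG00000175054, chromosome 3, 142449235 to 142578826, minus strand) had 74, 42 and 73 counts in the ABI2 libraries, against 682, 886 and 474 counts in the control libraries, and fell by 3.34 ± 0.31 on the log2 scale (adjusted p = 8.51e-05). Control libraries varied more for ATR than for ATM, but the lowest of them still held several times the counts of the highest ABI2 library. PRKDC, the DNA-dependent kinase of end joining, was the most counted member in the control libraries and fell to 72.1, 60.7 and 43.1 CPM in ABI2 libraries, against 268, 310 and 235 CPM in control libraries (log2 fold change -2.21 ± 0.21, adjusted p = 0.000126).

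The effector kinases differed from each other. CHEK1, which acts below ATR, had 20.5, 17.9 and 13.5 CPM in the ABI2 libraries, against 37.4, 40.9 and 34.5 CPM in the control libraries, and fell by 1.12 ± 0.16 (log2, adjusted p = 0.00052). CHEK2, which acts below ATM, had 16.4, 16.7 and 15.6 CPM in ABI2 libraries and 18.0, 16.6 and 18.6 CPM in control libraries, so the groups overlapped and the difference of -0.13 ± 0.09 (log2) did not pass the test (adjusted p = 0.206). ATRIP, the obligate partner of ATR, had 215, 207 and 245 counts in ABI2 libraries, even among themselves, against 132, 43 and 225 counts in control libraries, which spanned a wide range. Its log2 fold change of 0.83 ± 0.53 did not pass the test (adjusted p = 0.201). Without control replicate 3 it was 1.47 with an adjusted p of 0.029, and ATRIP shares 18871 bases on the same strand with the table's AC134772.2, so its counts are uncertain.

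The coding sequences of these genes show how far members differed in base composition. The windows are the middle 120 bases of the coding sequence of the 2 members with the largest falls, ATM and ATR, and of the 2 with the largest called rises, FANCE and FANCG, from the longest coding transcript of GENCODE release 29, with G and C in capitals.
ATM: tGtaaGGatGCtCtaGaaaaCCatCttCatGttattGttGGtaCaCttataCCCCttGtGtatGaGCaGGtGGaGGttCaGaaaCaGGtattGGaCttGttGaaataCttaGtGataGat
ATR: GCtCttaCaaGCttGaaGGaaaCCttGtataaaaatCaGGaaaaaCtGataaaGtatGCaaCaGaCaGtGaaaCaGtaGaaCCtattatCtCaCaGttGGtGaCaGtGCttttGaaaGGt
FANCE: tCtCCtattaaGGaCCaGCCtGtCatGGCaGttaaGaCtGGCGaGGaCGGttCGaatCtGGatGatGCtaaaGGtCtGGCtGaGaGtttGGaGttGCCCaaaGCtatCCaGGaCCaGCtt
FANCG: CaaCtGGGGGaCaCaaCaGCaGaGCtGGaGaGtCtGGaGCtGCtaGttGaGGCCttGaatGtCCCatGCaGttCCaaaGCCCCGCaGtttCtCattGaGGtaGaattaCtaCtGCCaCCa
G and C made up 38.3% of the window in ATM, 36.7% in ATR, 50.8% in FANCE and 52.5% in FANCG. Over the whole transcript the shares were 39.1% in ATM, 40.02% in ATR, 57.9% in FANCE and 58.1% in FANCG.

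All 5 genes of the BRCA group fell, where 38.0% of all genes were called lower. Their log2 fold changes lay between -2.64 and -1.42, with a median of -2.41. BARD1, the RING partner of BRCA1, had 4.01, 3.83 and 2.90 CPM in the ABI2 libraries, against 19.5, 21.1 and 21.5 CPM in the control libraries (log2 fold change -2.53 ± 0.14, adjusted p = 1.58e-05). PALB2, the bridge between BRCA1 and BRCA2, had 3.01, 3.60 and 3.55 CPM in the ABI2 libraries, against 18.3, 20.03 and 15.6 CPM in the control libraries (-2.41 ± 0.14, adjusted p = 1.6e-05). Both genes were thus more than 5-fold lower, at 17.3% of the control CPM for BARD1 and 18.8% for PALB2. BRCA1 itself (chromosome 17, 43044295 to 43170245, minus strand) fell least of the 5, with 223, 211 and 217 counts in ABI2 libraries and 664, 639 and 560 counts in control libraries (-1.42 ± 0.10, adjusted p = 2.39e-05). BRIP1, a helicase bound to BRCA1, fell by 2.64 ± 0.24 on the log2 scale (adjusted p = 6.77e-05). BRCA2, which loads the recombinase, was among the members with the lowest counts, 30, 41 and 33 in ABI2 libraries, against 280, 113 and 111 in control libraries. Its first control library held more than 2-fold the counts of the others, and the log2 fold change was -2.17 ± 0.41 (adjusted p = 0.00247) with it and -1.60 without it.

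The recombinase paralogs, which help build and steady the recombinase filament, divided by direction. XRCC3 rose to 84.1, 91.2 and 92 CPM in ABI2 libraries, against 60.5, 54.2 and 60.2 CPM in control libraries (log2 fold change 0.61 ± 0.07, adjusted p = 0.000174). RAD51C, its partner in the CX3 complex, fell to 16.2, 16.3 and 10.9 CPM in ABI2 libraries, against 24.1, 28.0 and 24.1 CPM in control libraries (-0.81 ± 0.17, adjusted p = 0.00349). Neither pair of groups overlapped, so the 2 subunits of one complex were called in opposite directions. RAD51B fell by 0.65 ± 0.13 (log2, adjusted p = 0.00305) and XRCC2 by 0.91 ± 0.20 (adjusted p = 0.00476). RAD51D rose in counts, with 1298, 1193 and 1345 in ABI2 libraries and 1247, 908 and 890 in control libraries (0.43 ± 0.13, adjusted p = 0.019). In the authors' TPM values, which are scaled by transcript length, RAD51D had 11.1, 9.92 and 10.7 TPM in ABI2 libraries and 9.53, 11.5 and 12.9 TPM in control libraries, so its groups overlapped there. The gene also shares 29286 bases on the same strand with the table's AC004223.3, and its rise lost its call without ABI2 replicate 3, control replicate 2 or control replicate 3.

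All 4 genes of break sensing and resection fell, where 38.0% of all genes were called lower. MRE11, the nuclease of the complex that first binds a broken end, had 229, 225 and 114 counts in ABI2 libraries, against 1308, 1358 and 1038 in control libraries (log2 fold change -2.61 ± 0.27, adjusted p = 0.000148). NBN, its signalling subunit, had 4.47, 4.75 and 5.34 CPM in ABI2 libraries, against 23.0, 22.7 and 18.3 CPM in control libraries (-2.14 ± 0.13, adjusted p = 1.86e-05). RAD50, the subunit that tethers the ends, fell by 1.87 ± 0.20 (adjusted p = 0.000136), although 90061 bases of it overlap the table's AC116366.3 on the same strand and its counts are uncertain. The 3 subunits thus fell together, by 3.65-fold for RAD50 to 6.11-fold for MRE11. RBBP8, the resection cofactor also called CtIP, had 5.22, 4.73 and 4.19 CPM in ABI2 libraries, against 20.8, 20.8 and 15 CPM in control libraries (-2.003 ± 0.17, adjusted p = 4.32e-05).

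Of the 4 chromatin signalling genes at breaks, 3 fell and 1 rose, where 38.0% of all genes were called lower and 35.1% higher. RNF168, the ubiquitin ligase that spreads the mark on histone H2A, had 33.3, 28.4 and 26.4 CPM in the ABI2 libraries, against 92.6, 89.9 and 91.6 CPM in the control libraries (-1.64 ± 0.09, adjusted p = 1.58e-05). TP53BP1, which reads that mark and limits resection, had 21.5, 18.4 and 12.1 CPM in ABI2 libraries, against 59.3, 63.7 and 54.3 CPM in control libraries (-1.77 ± 0.21, adjusted p = 0.000265). MDC1, the scaffold that recruits the ligases, rose to 68.0, 71.8 and 78.7 CPM in ABI2 libraries, against 61.4, 56.5 and 60.7 CPM in control libraries (0.29 ± 0.07, adjusted p = 0.00926). Its groups did not overlap, but the difference was 1.22-fold. RNF8, the first ligase, had 34.2, 27 and 24 CPM in ABI2 libraries and 43.2, 45.9 and 33.7 CPM in control libraries, which overlapped. Its fall of 0.53 ± 0.17 (log2, adjusted p = 0.0238) lost its call without ABI2 replicate 2, ABI2 replicate 3, control replicate 1 or control replicate 2.

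The Fanconi genes were evenly divided, with 5 higher and 5 lower, where 35.1% of all genes were called higher and 38.0% lower. The rises were all in the core complex. FANCE, the core subunit that binds FANCD2, had 50.7, 48.3 and 61.9 CPM in the ABI2 libraries, against 28.5, 29.3 and 31.7 CPM in the control libraries (0.85 ± 0.11, adjusted p = 0.000322). FANCG had 68.3, 71.6 and 78 CPM in the ABI2 libraries, against 44.6, 45.7 and 44.8 CPM in the control libraries (0.69 ± 0.07, adjusted p = 8.96e-05). Both lay well above every control library, at 1.80-fold for FANCE and 1.61-fold for FANCG. FANCA, FANCC and FANCF rose by 0.27 to 0.31 on the log2 scale. FANCA lost its call without ABI2 replicate 2, ABI2 replicate 3 or control replicate 2, and FANCF without control replicate 1 or control replicate 3.

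The falls among the Fanconi genes took in the target pair and the catalytic and DNA-binding parts. FANCI (chromosome 15, 89243949 to 89317261, plus strand) had 532, 396 and 390 counts in ABI2 libraries, against 3193, 3761 and 2730 counts in control libraries (-2.78 ± 0.16, adjusted p = 1.74e-05). FANCD2, with which FANCI forms the clamp on DNA, had 6.92, 5.28 and 4.11 CPM in ABI2 libraries, against 25.1, 25.2 and 22.6 CPM in control libraries (-2.16 ± 0.19, adjusted p = 5.46e-05). FANCI was 6.89-fold lower and FANCD2 4.47-fold lower, and no ABI2 library reached a control library for either. FANCL, the ubiquitin ligase of the core complex, fell by 1.54 ± 0.14 (adjusted p = 6.64e-05), and FANCB, its X-linked partner, fell by 1.62 ± 0.24 (adjusted p = 0.000702). FANCM, the translocase that anchors the complex on DNA, fell by 2.59 ± 0.34 (adjusted p = 0.000357). FANCM had 12, 29 and 14 counts in ABI2 libraries and 110, 140 and 106 counts in control libraries, the lowest mean CPM of the members in each group, which limits its precision, and its log2(TPM + 0.1) difference was -1.89 by limma.

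Both RecQ helicases and MSH6 fell. BLM, which unwinds recombination intermediates, had 78, 55 and 43 counts in ABI2 libraries, against 516, 526 and 395 counts in control libraries (-2.93 ± 0.23, adjusted p = 3.47e-05). WRN had 53, 56 and 71 counts in ABI2 libraries, against 357, 330 and 277 counts in control libraries (-2.32 ± 0.17, adjusted p = 2.67e-05). The highest ABI2 library of each helicase held far fewer counts than its lowest control library. MSH6, which recognises mismatched bases, fell to 20.3, 17 and 22.1 CPM in ABI2 libraries, against 40.9, 47.5 and 37 CPM in control libraries (-1.08 ± 0.13, adjusted p = 0.00026). It overlaps FBXO11 on the opposite strand over 20786 bases, and counts were not stated to use strand. The same limit holds for other members, since 16 overlap another gene of the deposited table. Among them, FANCI overlaps POLG over 12064 bases, XRCC3 overlaps KLC1 over 16641 and TP53BP1 overlaps TUBGCP4 over 6711, each on the opposite strand.

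The direction of the members followed the GC content of their transcripts. The median transcript GC content was 42.8% for the members and 49.8% for all genes tested. All 22 members under 44.1% GC fell, among them every gene of the BRCA group and of break sensing and resection. When all tested genes were divided into 10 bins by GC content, 92.6%, 86.8% and 77.2% of the genes were called lower in the 3 bins of lowest GC, which end at that value. Of the 8 members over 50% GC, 7 rose and none fell, and the eighth was ATRIP. In the bins those 8 came from, 43.1% to 72.1% of all genes were called higher. Of the 7 members between those limits, 5 fell, FANCF rose and CHEK2 was not called. All of them came from 1 bin, in which 62.0% of all genes were called lower and 8.03% higher. Spearman's rho between transcript GC content and log2 fold change was 0.75 over the 37 members and 0.79 over 13314 genes, across genes of the same 6 libraries, given as a description.

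**Figure D2:**
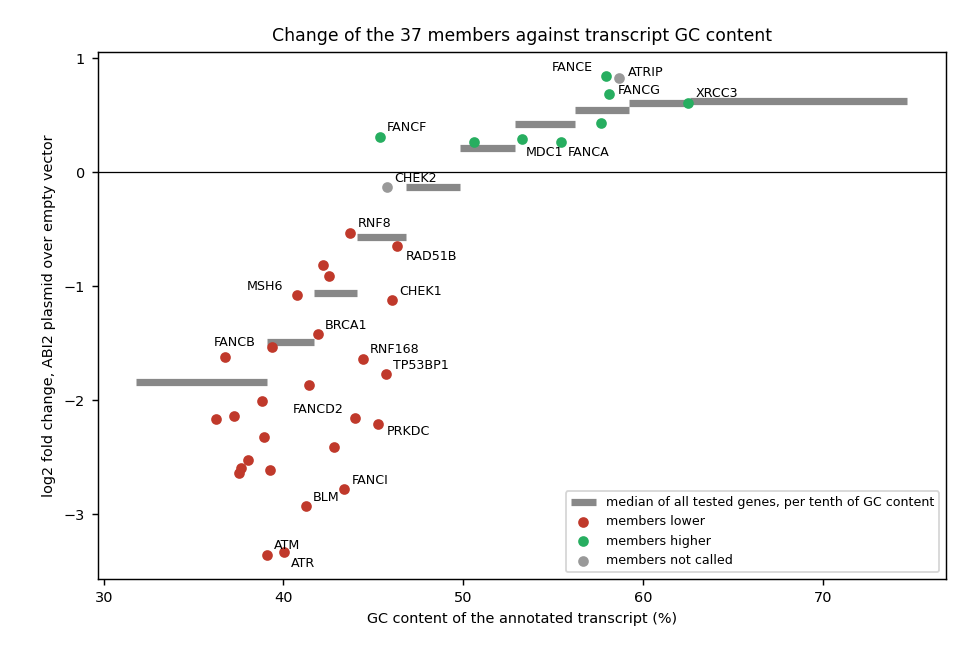
Log2 fold change (ABI2 plasmid over empty vector) of the 37 members against the GC content of the annotated transcript in percent, with points coloured by call and grey bars for the median of all tested genes in each of 10 bins of GC content. Points under 44.1% GC are all below 0, and ATR, FANCI, PRKDC and ATM lie furthest below their bar, while FANCF lies furthest above its own.

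Against genes of like GC content, some members still stood low. ATR lay 1.85 below the median log2 fold change of its GC bin, FANCI 1.72, PRKDC 1.64, ATM 1.52 and BLM 1.44. NBN, RBBP8, BRCA2 and FANCL lay within 0.33 of theirs, and FANCF lay 0.88 above. When each library's counts were first corrected for a smooth trend with transcript GC content, 51.2% of all genes were called in either direction. 15 members were then called lower, against 22.6% of all genes, 7 were called higher, against 28.6%, and the median of the members was -0.34. The correction takes out whatever follows GC content. With the GC content of the coding sequence in its place, a setting added after the data were seen, 54.5% of all genes were called, 13 members were lower, against 23.5% of all genes, 9 were higher, against 31.1%, and the median was -0.12.

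The same 15 members called lower after the correction had also been called lower before it. They were BARD1, PALB2, BRIP1, MRE11, RBBP8, ATM, ATR, CHEK1, PRKDC, RNF168, TP53BP1, FANCD2, FANCI, BLM and WRN. With the GC content of the coding sequence, 3 damage kinase and checkpoint genes were lower in place of 4. Of the break sensing and resection genes, 1 was lower there in place of 2. The corrected log2 fold change was -1.77 ± 0.28 for ATR (adjusted p = 0.00205), -1.73 ± 0.11 for FANCI (adjusted p = 6.34e-05), -1.71 ± 0.12 for ATM (adjusted p = 8.04e-05), -1.54 ± 0.16 for BLM (adjusted p = 0.000337) and -1.52 ± 0.15 for PRKDC (adjusted p = 0.000388). After the correction those genes were the lowest of the members, at roughly a 3-fold difference. 10 members that had been lower were no longer called, among them BRCA1 at -0.11 ± 0.10 (adjusted p = 0.392), BRCA2 at -0.35 ± 0.39 (adjusted p = 0.487) and NBN at -0.36 ± 0.13 (adjusted p = 0.0526).

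Calls that changed direction after the correction were those of RAD51C and RNF8. RAD51C was 0.43 ± 0.12 higher (adjusted p = 0.0203) and RNF8 0.46 ± 0.11 higher (adjusted p = 0.0133), where both had been called lower without it. CHEK2, not called before, was 0.47 ± 0.09 higher (adjusted p = 0.00443). Of the 8 members that rose, 4 stayed called, FANCC, FANCE, FANCF and FANCG, with 1.003 ± 0.11 for FANCF (adjusted p = 0.000463), whose value was -0.12 and not called with the GC content of the coding sequence. The other 4, RAD51D, XRCC3, MDC1 and FANCA, lay between -0.16 and 0.02 and were not called. Without TMM scaling, 3 members were higher and 27 lower, so the split also moved with the scaling: RAD51D, MDC1, FANCA, FANCC and FANCF lost their calls there, and XRCC3, FANCE and FANCG kept theirs. That scaling called 40.7% of all genes lower and 30.8% higher, or 71.5% in all. DESeq2 called 27 members lower and 8 higher, against 37.8% and 36.3% of all genes, and 74.2% in all. On log2(TPM + 1), limma called 28 members lower and 3 higher, against 40.5% and 28.3% of all genes, and 68.8% in all.

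**Figure D3:**
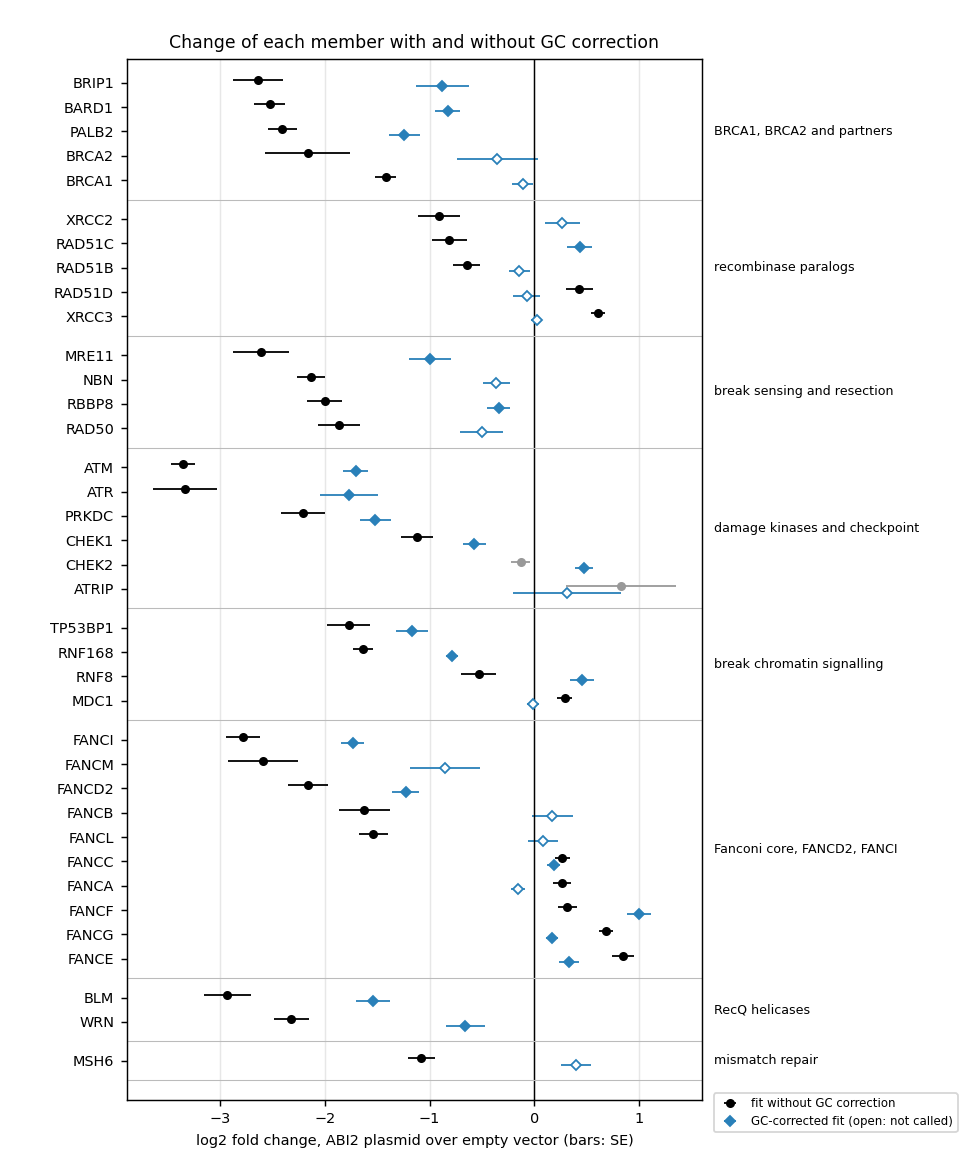
Log2 fold change (ABI2 plasmid over empty vector) of each member by role, as circles without GC correction (grey where not called) and as diamonds with it (open where not called), with bars of 1 SE. Without correction ATM, at -3.36, and ATR, at -3.34, are lowest and FANCE, at 0.85, is the highest called. With correction ATR, FANCI and ATM are lowest and RAD51C, RNF8 and CHEK2 lie above 0.

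The members that fell were also longer and had more exons. Spearman's rho between log2 fold change and number of exons was -0.60 over the members and -0.23 over all genes, and between log2 fold change and coding length -0.58 over the members and -0.26 over all genes. After the GC correction the values for exon number were -0.69 over the members and -0.33 over all genes, and those for coding length -0.61 and -0.42. Of the 17 members with a coding sequence of at least 3500 bases, a limit set after the values were seen, 15 were lower and 10 still so after the correction, with medians of -2.21 and -0.88. Of the 20 shorter members, 12 were lower and 5 after the correction, with medians of -0.73 and 0.13. Over all genes tested, of any length, 38.0% were lower, and 22.6% after the correction. The shares over all genes of like coding length were not computed, so these counts are not set apart from those of other long genes. PRKDC, with 86 exons and 12384 coding bases, ATM, with 63 exons and 9168 coding bases, and ATR, with 47 exons and 7932 coding bases, were all among the 5 lowest after correction. BRCA2, with 10254 coding bases in 27 exons, and MDC1, with 6267 coding bases in 15 exons, were not called after it. Length, exon number and GC content go together across genes, and their separate parts in the members' changes were not tested.

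Promoter composition did not order the members in this way. RefSeq promoter sequences (GRCh38.p14, 250 bases before to 50 bases after the gene's start) matched 33 of the 37 members, and NBN, PRKDC, FANCI and WRN were not matched. Spearman's rho between promoter GC content and log2 fold change was 0.18 over the 33. The motif of E2F factors, which drive many replication and recombination genes in S phase, was searched as TTTCCCGC or TTTGGCGC on both strands. It was present in 4 member promoters, those of XRCC2, FANCC, FANCD2 and MSH6, or 12.1%, against 2.31% of 27305 promoters. The CCAAT motif, on both strands, was in 16, or 48.5%, against 35.7% of all promoters. The 2 promoters shown carry the E2F motif, in capitals, and belong to a member that fell, FANCD2 (chr3:10026187-10026486, plus strand), and a member that rose, FANCC (chr9:95317660-95317959, minus strand).
FANCD2: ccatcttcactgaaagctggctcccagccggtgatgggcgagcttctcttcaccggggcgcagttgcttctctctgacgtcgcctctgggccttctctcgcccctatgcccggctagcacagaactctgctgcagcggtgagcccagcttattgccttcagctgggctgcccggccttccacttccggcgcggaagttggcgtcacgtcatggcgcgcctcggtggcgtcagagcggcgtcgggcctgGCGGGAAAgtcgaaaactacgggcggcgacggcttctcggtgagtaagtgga
FANCC: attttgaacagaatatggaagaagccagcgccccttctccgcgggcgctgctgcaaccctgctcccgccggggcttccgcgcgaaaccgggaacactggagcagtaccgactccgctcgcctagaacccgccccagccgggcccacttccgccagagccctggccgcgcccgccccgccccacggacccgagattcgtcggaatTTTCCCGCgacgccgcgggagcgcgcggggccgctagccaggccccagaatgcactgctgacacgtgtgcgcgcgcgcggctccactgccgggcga
The motif reads as TTTCCCGC in FANCC and as its reverse complement, GCGGGAAA, in FANCD2, so members with the motif moved in both directions.

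Levels between members were compared in TPM, which is per length. In control libraries the order ran from CHEK1, at 44.0 TPM, RAD51C, at 43.9, XRCC3, at 40.3, FANCI, at 36.9, and PRKDC, at 35.5, down to BRCA2, at 0.95, RAD50, at 0.87, and FANCM, at 0.71. Of the 36 neighbouring pairs in that order, 31 overlapped over the 3 libraries and 5 did not. In ABI2 libraries the order began with XRCC3, at 56.4 TPM, FANCG, at 49.9, FANCA, at 34.8, FANCE, at 33.4, and RAD51C, at 20.7, and ended with RAD50, BRCA2 and FANCM. CHEK1, FANCI and PRKDC had left the first 5 places, and 3 core Fanconi subunits had entered them. 11 members were above 10 TPM in ABI2 libraries and 18 in control libraries, while 9 were below 1 TPM in ABI2 libraries and 3 in control libraries. The summed TPM of the 37 members was 365, 352 and 351 in the ABI2 libraries, against 562, 561 and 528 in the control libraries.

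**Figure D4:**
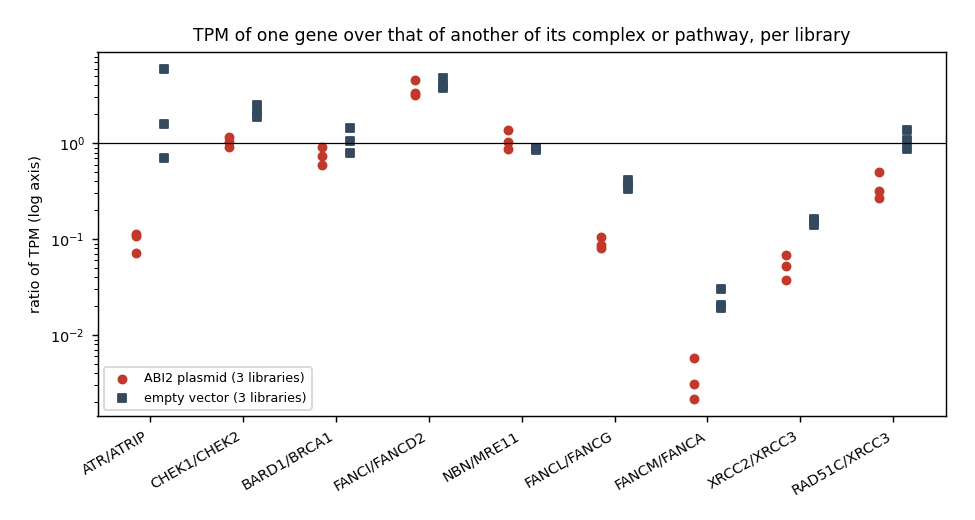
Ratio of the TPM of one gene to that of another gene of its complex or pathway, on a log axis, in the 3 ABI2 and the 3 control libraries. ATR/ATRIP, CHEK1/CHEK2, FANCL/FANCG and RAD51C/XRCC3 are lower in every ABI2 library than in any control library, while BARD1/BRCA1 and FANCI/FANCD2 overlap.

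Several ratios between partners did not overlap between the groups. The TPM ratio of ATR to ATRIP was 0.11, 0.07 and 0.11 in ABI2 libraries, against 1.61, 6.00 and 0.70 in control libraries, where both genes varied. The ratio of CHEK1 to CHEK2 was 1.17, 1.04 and 0.92 in ABI2 libraries, against 2.14, 2.53 and 1.88 in control libraries. FANCL, the catalytic subunit, had 0.08, 0.11 and 0.09 of the TPM of its core partner FANCG in ABI2 libraries, against 0.37, 0.42 and 0.33 in control libraries. In none of these 3 did an ABI2 library reach a control library. RAD51C to XRCC3, the CX3 pair, was 0.32, 0.51 and 0.27 in ABI2 libraries, against 1.07, 1.37 and 0.87 in control libraries. By contrast, the ratio of FANCI to FANCD2 was 3.17, 3.31 and 4.54 in ABI2 libraries and 3.79, 4.81 and 3.96 in control libraries, and that of BARD1 to BRCA1 was 0.91, 0.59 and 0.73 in ABI2 libraries and 0.80, 1.06 and 1.45 in control libraries. Both of these overlapped, and so did BRCA2 to PALB2 and NBN to MRE11.

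The transcript length that the deposited table implies, counts divided by FPKM, was close to equal in the groups for most members. Of the 28 members with at least 100 counts in every library, 21 had a ratio of ABI2 to control between 0.9 and 1.1. Over the 10127 genes with that many counts, the quartiles of the ratio were 0.993 and 1.025, and its full range was 0.135 to 2.55. Quartiles over the members alone were not computed. The groups did not overlap in 6 members, FANCL at 0.87 among them, and the share over all genes was not computed. BRCA1 had the highest ratio, 1.39, with groups that did not overlap, followed by RAD51D, at 1.28, and FANCI had the lowest, 0.76, also without overlap. For these genes a fold change in counts and one in TPM differ: the fall of BRCA1 was 1.42 on the log2 scale in counts, while its TPM was 2.24, 1.86 and 1.75 in ABI2 libraries, against 9.39, 8.36 and 6.21 in control libraries, a log2(TPM + 0.1) difference of -1.96 by limma. How the authors counted is not stated in what was used here, so a change of isoform and a change of counting cannot be told apart.

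Other genes of the same pathways, 81 in the table, moved in both directions. 22 were called higher and 43 lower, or 27.2% and 53.1%, against 35.1% and 38.0% of all genes. The other 16 were not called, and the median was -0.29, beside -0.01 for all genes tested. After the GC correction 21 were higher and 26 lower, against 28.6% and 22.6% of all genes. Among the other recombination genes, 5 of 20 rose and 8 fell, where 35.1% of all genes were called higher and 38.0% lower. Falls were thus about as common there as among all genes. The junction nuclease subunit MUS81 (0.54 ± 0.07) was among those that rose. The filament-remodelling ATPase FIGNL1 (-2.99 ± 0.17) and the resection nuclease DNA2 (-2.41 ± 0.15) were among those that fell. Among the other checkpoint genes, 3 of 17 rose and 10 fell, or 17.6% and 58.8%. TOPBP1, the activator of ATR, was at 5.004 ± 0.72 CPM in ABI2 libraries and 45.1 ± 11 CPM in control libraries (-3.17 ± 0.21, adjusted p = 2.34e-05), and CLSPN, the adaptor that presents CHEK1 to ATR, fell by 1.85 ± 0.16 (adjusted p = 5.69e-05). Their values after the GC correction were -1.77 for TOPBP1 (adjusted p = 0.000144) and -0.87 for CLSPN (adjusted p = 0.000755), so both stayed called, as ATR and CHEK1 did.

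Of the 11 other Fanconi genes, 5 were higher and 4 lower, or 45.5% and 36.4%, against 35.1% and 38.0% of all genes. MAD2L2, a subunit of the bypass polymerase zeta, rose (0.72 ± 0.05), and so did FAAP20 (0.60 ± 0.08) and FAAP100 (0.58 ± 0.09) of the core complex. The nuclease gene ERCC4 fell (-2.72 ± 0.17), and so did USP1 (-1.84 ± 0.11) and its cofactor WDR48 (-2.49 ± 0.27), which together remove ubiquitin from FANCD2. Of the 14 tested chromatin signalling genes outside the members, 10 fell and 3 rose, or 71.4% and 21.4%. Among them were TRIP12, which limits RNF168 (-2.65 ± 0.21), and the histone gene H2AFX (0.78 ± 0.07). Of 12 end joining genes 6 fell and 4 rose, where 38.0% of all genes were called lower and 35.1% higher. POLQ (-2.77 ± 0.27), LIG4 (-2.13 ± 0.18) and XRCC4 (-2.05 ± 0.16) were among those that fell, and PARP1 (0.23 ± 0.05) among those that rose. Of 7 other mismatch repair genes, 5 fell and 2 rose, or 71.4% and 28.6%. MSH3 was among those that fell (-2.25 ± 0.18). Those that rose were POLD1 (0.86 ± 0.06) and LIG1 (0.65 ± 0.05), which also serve replication. After the GC correction LIG4 and XRCC4 were not called, nor were FAAP20, FAAP100, LIG1 and MUS81 among the genes that had risen. MAD2L2, H2AFX, PARP1 and POLD1 stayed higher, POLQ, ERCC4, USP1, WDR48, TRIP12 and MSH3 stayed lower, and PMS1, lower before at -1.17 ± 0.12, was higher at 0.59 (adjusted p = 0.00379).

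Within a group, libraries were not equally far from the rest. ABI2 replicate 3 held the lowest CPM of its group in 15 of the 27 members called lower, against 8 for replicate 1 and 4 for replicate 2. Control replicate 3 held the lowest of its group in 20 of the 27, against 3 for replicate 1 and 4 for replicate 2. Count-weighted GC content was the highest in those same libraries, 54.1% for ABI2 replicate 3 and 51.3% for control replicate 3, and its part in these differences was not tested.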

How the data were processed

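RNA-seq of 6 MDA-MB-231 samples was used, grouped by the sample titles. The authors deposited 1 table with read counts, TPM and FPKM per gene and library, per the file headers. Reads were handled with HISAT2 2.1.0, StringTie 1.3.3b, Trimmomatic and FastQC 0.11.2 on GRCh38, per the submitters' processing notes. No source used here states the counting program, its strand setting or the annotation, so reads of overlapping genes cannot be told apart. Of the table, 20260 rows were complete, and 1 that broke off was left out.

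The deposited counts entered edgeR 4.0.16 (R 4.3.3) with filterByExpr at a minimum count of 10, TMM scaling and the robust two-sided quasi-likelihood F test, with Benjamini-Hochberg adjustment over all 13325 genes tested at a threshold of 0.05. SE is the absolute log2 fold change over the square root of F. Alternatives were library sizes without TMM, DESeq2 1.42.0, no filter, limma 3.58.1 on log2(TPM + 1) and log2(TPM + 0.1), offsets from a natural spline of transcript GC content with 5 degrees of freedom, a replicate block, and leaving out each library. GC content and lengths came from GENCODE release 29, the transcript with the longest coding sequence, with 20221 genes matched by identifier. Coordinates are those of the table. The procedure was tested on simulated counts.

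Chi-square per degree of freedom between libraries of a group was 21.1 to 48.2, above counting noise. The members, the lists and the tests were chosen with earlier results of these data known. All members are named. Values per library are given for up to 2 members per role group and direction with the smallest p and for those the text turns on. Other repair genes are named by smallest p within their list.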

Additional observations from a re-analysis of the deposited data

How the results depend on the processing

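DESeq2, no filter on low counts and the replicate block gave every one of the 37 members the same direction and the same side of the threshold. Over all genes tested, the deviations of samples with the same number from their group means were barely correlated (r = 0.02, 0.02 and 0.06). The numbers were thus not taken to pair the samples. Replicate 3 of each group still held the lowest CPM in most members called lower, as given above. With the block, 8 members were higher and 27 lower, with a median of -1.61, and 4548 genes were higher and 4929 lower. Leaving out each library in turn gave 6 to 8 members higher, 26 to 27 lower and a median of -1.64 to -1.45, with 4369 to 4562 genes higher, 4713 to 5012 lower, and ABI2 at 1.43 to 1.44. Without TMM scaling 3 members were higher. With log2(TPM + 1) 3 were higher and the median was -1.16. Adding 1 shrinks the change of genes with low TPM, and its part in these values was not tested. With log2(TPM + 0.1) 3 were higher. RAD51D lay at -0.078 on the TPM + 1 scale and at -0.084 on the TPM + 0.1 scale, and CHEK2 was called lower there.

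With transcript GC content corrected, 15 members and 3014 genes were lower and the median was -0.34. The log2 fold change changed sign for RAD51C (0.43), RAD51D (-0.073), XRCC2 (0.27), CHEK2 (0.47), MDC1 (-0.014), RNF8 (0.46), FANCA (-0.16), FANCB (0.17), FANCL (0.086) and MSH6 (0.40). With coding GC content, added after the data were seen, 13 members and 3128 genes were lower and the median was -0.12. It changed sign for BRCA1 (0.28), RAD51B (0.36), RAD51C (0.57), XRCC2 (0.80), CHEK2 (0.88), RNF8 (0.46), FANCB (0.22), FANCF (-0.12), FANCL (0.12) and MSH6 (0.16). Apart from the GC corrections, whose construction removes the trend, the cause of these shifts was not tested. FANCM, BRCA2 and RAD50 each had under 50 counts in all ABI2 libraries, which limits their precision.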

Other observations

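The listed genes of DNA replication and origin licensing were called higher more often than lower, but licensing genes moved in both directions. Of 16 on the list, 9 were higher and 4 lower, against 35.1% and 38.0% of all genes tested, with a median log2 fold change of 0.31, beside -0.01 for all genes tested. Their median GC content was 50.4%, and in the bin of all genes that holds this value 43.1% were called higher and 13.8% lower, with a median of 0.21. The licensing factor CDT1 had 146 ± 4.3 CPM in ABI2 libraries and 75.0 ± 0.71 CPM in control libraries (SD, n = 3 each; log2 fold change 0.96 ± 0.05, edgeR adjusted p = 1.34e-05), and the helicase subunit MCM5 had 235 ± 5.0 CPM in ABI2 libraries and 128 ± 3.8 CPM in control libraries (0.88 ± 0.05, adjusted p = 1.45e-05). The cyclin gene CCNE2 fell by 2.46 ± 0.16 on the log2 scale (adjusted p = 1.96e-05). The other genes called lower were RRM1 (-1.87 ± 0.39) and the licensing genes MCM6 (-1.62 ± 0.34) and CDC6 (-0.62 ± 0.14). After the GC correction 11 of the 16 were higher, against 28.6% of all genes, and 1, CCNE2, was lower, against 22.6%.

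ABI2 itself differed between the deposited units. Its counts were 2.69-fold higher, while its TPM was 111, 116 and 177 in ABI2 libraries, against 17.8, 14.8 and 17.6 in control libraries, and it was higher in every ABI2 library in both.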
